A study of Mus musculus with 8 samples.

Results

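The fatty acid desaturases and elongases described here are 10 genes, Scd1, Scd2, Fads1, Fads2, Fads3, Elovl1, Elovl2, Elovl5, Elovl6 and Elovl7, measured in whole testis of 5 Ing2−/− and 3 Ing2+/+ mice. Each was taken with every probe set that the platform annotation ties to that symbol alone, which gave 10 probe sets, 1 for each gene, of 35557 probe sets and of 19938 genes with a probe set of their own. The family was chosen by the difference between the genotypes on these same arrays, where Scd1 and Fads1 were among the largest increases, so the levels and differences of these genes are a description and carry no test. Ing2−/− mice lacked exon 2 of Ing2 in the germ line, after recombination by an EIIa-Cre transgene that was later bred out, and came from 129/Sv embryonic stem cells bred with C57BL/6J mice. Ing2+/+ mice were their littermates, and both groups were 2 to 3 months old. Total RNA of each whole testis was hybridized to 1 Affymetrix Mouse Gene ST array per mouse, none pooled. The values are log2 levels after RMA (robust multi-array average), so each is relative to all else transcribed in that testis. The deletion was present in every cell of the mouse. Whole testis RNA holds all testis cells together, so fewer cells of a type and less RNA per cell cannot be told apart.

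Desaturases add a double bond to a fatty acid bound to coenzyme A, and elongases catalyze the condensing step that lengthens the chain. Scd enzymes make monounsaturated fatty acids, chiefly oleate and palmitoleate. Fads2 and Fads1 work in turn with Elovl5 and Elovl2 to make arachidonic acid and the longer polyunsaturated fatty acids from dietary linoleic and linolenic acid. Germ cells of the rodent testis are rich in such long polyunsaturated fatty acids, Sertoli cells are a known site of their synthesis, and male mice without Fads2 or without Elovl2 do not form normal sperm. Elovl1, Elovl6 and Elovl7 lengthen mainly saturated and monounsaturated chains.

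Ing2 itself lay between 5.06 and 5.64 in Ing2−/− testes, against 7.34 to 7.60 in Ing2+/+ testes, a log2 difference of −2.16 (SE 0.127, adjusted p = 3.95e-04 from limma), so every array matched its genotype label. Every difference is the Ing2−/− mean minus the Ing2+/+ mean in log2 units, and a probe set was called at a Benjamini-Hochberg adjusted p under 0.05 in a limma fit over all probe sets. Replicate 3 of the Ing2−/− testes stood apart, with a mean Pearson r across probe sets of 0.983 with the other Ing2−/− arrays, against 0.990 to 0.992 for those arrays and 0.995 among the Ing2+/+ arrays. Array medians were 6.46 to 6.53 in Ing2−/− and 6.41 to 6.45 in Ing2+/+ testes. Nothing in the labels ties a number to a shared litter or day.

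Of the 10 genes, Scd1 and Fads1 were the 2 called higher in Ing2−/− testes and 0 were called lower, where 4.82% of all probe sets were called, 1.79% higher and 3.03% lower. The genes were put forward with this contrast known, and nothing is read from that count. With 1 array left out it ran from 0, without Ing2−/− replicate 5 or any 1 of the Ing2+/+ arrays, through 1 without Ing2−/− replicate 1 and 4 without replicate 4, to 5 without replicate 3, where the calls over all probe sets grew to 5006, against 1713 with every array. The 5 Ing2−/− levels all lay above the 3 Ing2+/+ levels for 6 of the 10 genes, Scd1, Scd2, Fads1, Fads2, Elovl1 and Elovl5, and for none did they all lie below, where 14.4% of all probe sets were separated upward and 12.2% downward. The median difference of the 10 genes was 0.45, against 0.03 over all probe sets.

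**Figure D1:**
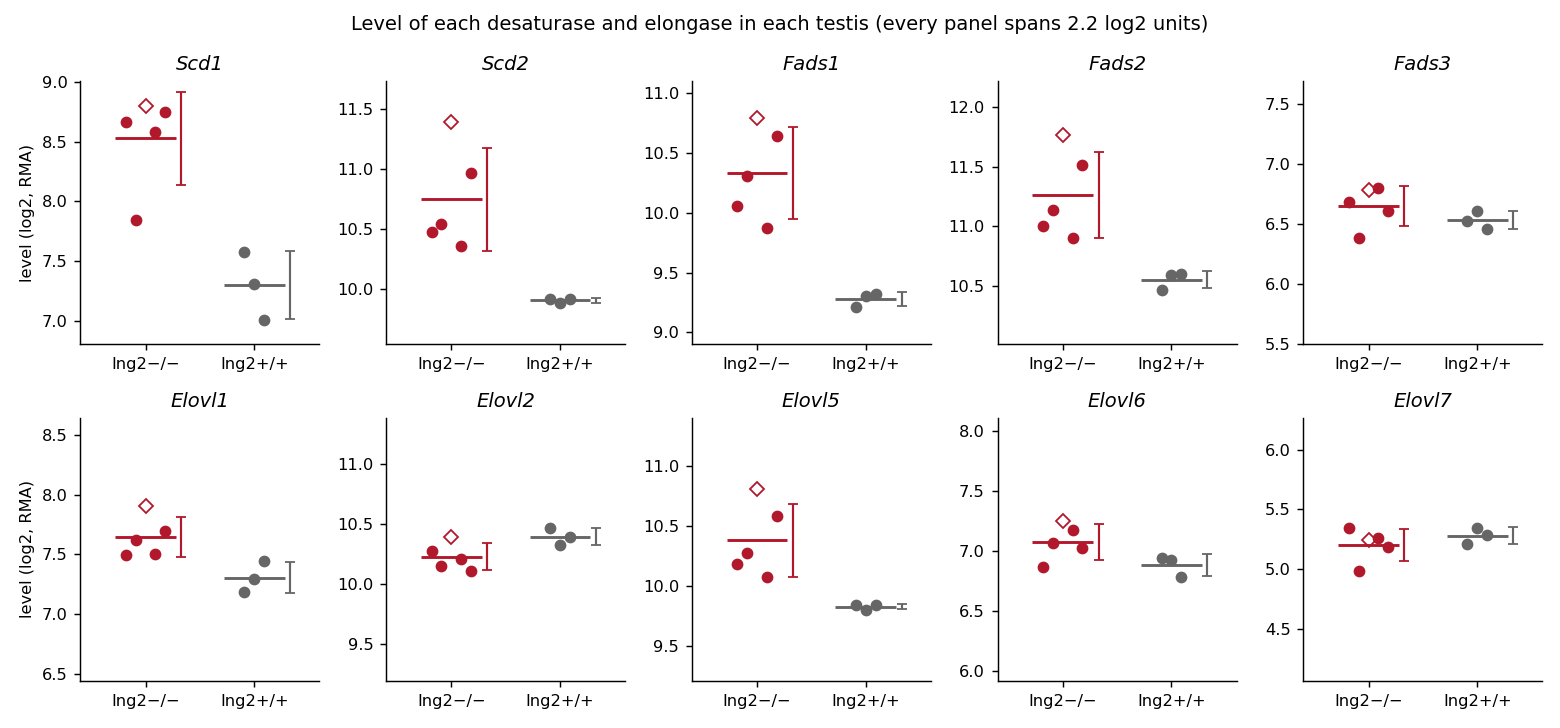
Level (log2, RMA) of each of the 10 genes, 1 panel per gene, with Ing2−/− testes (n = 5, red) on the left and Ing2+/+ testes (n = 3, grey) on the right; each point is 1 mouse, the open diamond is Ing2−/− replicate 3, horizontal lines are means and error bars are SD. Scd1, Scd2, Fads1, Fads2, Elovl1 and Elovl5 are separated between genotypes and the other 4 genes overlap.

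Scd1, the stearoyl-CoA desaturase that places the first double bond into stearate and palmitate, showed the largest difference of the 10 genes. Its log2 level was 8.66, 7.84, 8.80, 8.58 and 8.75 in Ing2−/− replicates 1 to 5, against 7.58, 7.31 and 7.01 in Ing2+/+ replicates 1 to 3. The lowest Ing2−/− testis, replicate 2, still lay above the highest Ing2+/+ testis, and the other 4 Ing2−/− testes lay close together. Scd1 averaged 8.53 ± 0.39 in Ing2−/− and 7.30 ± 0.28 in Ing2+/+ testes (SD, n = 5 and n = 3), a difference of 1.23 (SE 0.22), or 2.34-fold. With 1 array left out in turn, the difference was 1.08 to 1.40.

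Scd2, a second stearoyl-CoA desaturase, had a level of 10.47, 10.54, 11.39, 10.36 and 10.97 in Ing2−/− testes, against 9.92, 9.88 and 9.92 in Ing2+/+ testes. The Ing2+/+ testes were nearly equal, whereas the Ing2−/− testes spread over about 1 log2 unit and did not reach down to them. The difference was 0.84 (SE 0.22), with means of 10.75 ± 0.43 in Ing2−/− and 9.91 ± 0.02 in Ing2+/+ testes. Scd2 and Scd1 were both highest in Ing2−/− replicate 3 and next highest in replicate 5. Their orders differed in replicate 2, which was lowest in Scd1 but above replicates 1 and 4 in Scd2. Relative to the Ing2+/+ mean of each gene, Scd1 stood 0.79 and 0.82 above Scd2 in Ing2−/− replicates 1 and 4, 0.39 above it in replicate 5, and within 0.10 of it in replicates 2 and 3. The same measure ran from −0.30 to 0.26 in the Ing2+/+ testes, which overlaps the Ing2−/− range. Among the protein-coding genes of mouse chromosome 19, Scd3, Scd2, Scd4 and Scd1 are consecutive in the GRCm38.p6 gene table, and their sequences are similar enough that probes of one may take up transcripts of another, which was not tested. Scd3, which is known from skin glands, lay at 5.66 ± 0.09 in Ing2−/− and 5.42 ± 0.07 in Ing2+/+ testes, and Scd4 at 4.82 ± 0.09 in Ing2−/− and 4.70 ± 0.03 in Ing2+/+ testes. Both are dim, near or below the median of those probe sets that carry no gene name, which was 5.55 to 5.62 on the Ing2−/− arrays and 5.47 to 5.51 on the Ing2+/+ arrays.

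Since Scd1 is abundant in fat, markers of adipocytes were measured beside it. Of 10 listed markers 9 were measured, and 0 were called. The mean over these markers of the level minus the Ing2+/+ mean was 0.35, −0.16, 0.12, 0.23 and 0.25 in Ing2−/− replicates 1 to 5, against −0.11 to 0.05 in Ing2+/+ testes. Ing2−/− replicate 2, the lowest in Scd1, was also the lowest in this score. Car3, a carbonic anhydrase abundant in fat, spread most among them. It was 8.16, 5.29, 7.17, 7.57 and 8.19 in Ing2−/− testes, against 6.89, 6.82 and 6.38 in Ing2+/+ testes. Car3 is part of the score and weighs most in its low value for Ing2−/− replicate 2. Adipoq, the adipocyte hormone adiponectin, was 6.17, 5.40, 5.52, 5.75 and 5.71 in Ing2−/− testes. It was 5.70, 5.64 and 5.54 in Ing2+/+ testes, so the groups overlapped. Of the Ing2−/− testes, replicate 2 was also lowest in Adipoq, Plin1, Retn and Plin4. Cidec and Lep were lowest in replicate 3, Pck1 in replicate 5 and Slc36a2 in replicate 4. Of the 9 markers, 2 were separated upward and 0 downward. The separated markers were Plin4 (difference 0.26, SE 0.063, adjusted p = 0.051 from limma) and Lep (0.15, SE 0.070, adjusted p = 0.21 from limma). Fabp4 and Lpl, from the list of fatty acid uptake and binding, were also lowest in Ing2−/− replicate 2, at 5.41 and 5.55. Their groups overlapped. Car3, Adipoq, Plin1, Retn, Plin4, Cidec, Lep, Pck1, Slc36a2, Fabp4 and Lpl were named after their values were seen. Without replicate 2 the difference in Scd1 was 1.40. The part of these markers in the Scd1 result was not tested.

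Fads1, the desaturase of the last step to arachidonic acid, had a level of 10.06, 10.31, 10.79, 9.87 and 10.64 in Ing2−/− testes, against 9.21, 9.31 and 9.32 in Ing2+/+ testes. All 5 Ing2−/− testes exceeded every Ing2+/+ testis by at least 0.5 log2 units. The means were 10.34 ± 0.38 in Ing2−/− and 9.28 ± 0.06 in Ing2+/+ testes, a difference of 1.06 (SE 0.20), or 2.08-fold. With 1 array left out in turn, it was 0.94 to 1.17.

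Fads2, the desaturase that opens the pathway, ranked the 5 Ing2−/− mice as Fads1 did, at a smaller size. Its level was 11.00, 11.14, 11.76, 10.90 and 11.51 in Ing2−/− testes, against 10.47, 10.59 and 10.60 in Ing2+/+ testes. The genotypes were separated, with a difference of 0.71 (SE 0.19), or 1.64-fold. Within every Ing2−/− testis Fads1 stood further above its own Ing2+/+ mean than Fads2 did. The excess was 0.33, 0.45, 0.30, 0.25 and 0.40 in Ing2−/− replicates 1 to 5, against −0.0085 to 0.0146 in the Ing2+/+ testes. It varied less among Ing2−/− mice (SD 0.08) than either gene alone (SD 0.38 for Fads1 and 0.36 for Fads2).

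Fads3, the third gene of the cluster, which acts on sphingoid bases, did not share this pattern. It measured 6.68, 6.39, 6.78, 6.80 and 6.61 in Ing2−/− testes, against 6.53, 6.61 and 6.46 in Ing2+/+ testes, with a difference of 0.12 (SE 0.10). The groups overlapped. Relative to the Ing2+/+ means, Fads1 exceeded Fads3 by 0.32 to 1.29 within Ing2−/− testes and by −0.06 to 0.11 within Ing2+/+ testes. Fads3, Fads2 and Fads1 are consecutive protein-coding genes on chromosome 19.

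Elovl5, which lengthens the products of Fads2, measured 10.18, 10.27, 10.81, 10.07 and 10.58 in Ing2−/− testes, against 9.84, 9.80 and 9.84 in Ing2+/+ testes. The groups were separated and the order of the Ing2−/− mice was that of Scd2, Fads1 and Fads2, with replicate 3 highest, then replicates 5, 2 and 1, and replicate 4 lowest. The difference was 0.56 (SE 0.16), and −0.06 against a median of −0.59 over all probe sets once the arrays were put on an equal level of Sertoli markers. Elovl2, which lengthens the longer polyunsaturated chains, went without such a difference. It measured 10.28, 10.15, 10.39, 10.21 and 10.11 in Ing2−/− testes, against 10.47, 10.33 and 10.39 in Ing2+/+ testes, with a difference of −0.17 (SE 0.079) and overlapping groups. The 2 elongases of the same pathway thus diverged within each Ing2−/− testis. Relative to the Ing2+/+ means, Elovl5 stood 0.43 to 1.05 above Elovl2 in Ing2−/− testes, against −0.06 to 0.04 in Ing2+/+ testes.

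The promoters of Fads2, Elovl5 and Elovl2 are shown because the first pair moved together across the mice and the third did not. The RefSeq promoter table held 9 start sites for 7 of the 10 genes, all but Scd1, Scd2 and Fads1, and the 250 bases before each start were searched on both strands. Capitals mark CCAAT (the NF-Y box), GGGCGG (an Sp1 box) and CACGTG (an E-box), or their reverse complements. Each sequence is given 5′ to 3′ on the gene's strand, up to the base before the start.

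Fads2 (GRCm38.p6, chr19:10101504-10101753, minus strand): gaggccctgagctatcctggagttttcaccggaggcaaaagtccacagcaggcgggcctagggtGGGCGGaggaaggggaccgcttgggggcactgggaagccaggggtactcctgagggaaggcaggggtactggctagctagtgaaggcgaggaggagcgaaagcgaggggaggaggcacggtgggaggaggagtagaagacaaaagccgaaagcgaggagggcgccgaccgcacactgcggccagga

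Elovl5 (GRCm38.p6, chr9:77917115-77917364, plus strand): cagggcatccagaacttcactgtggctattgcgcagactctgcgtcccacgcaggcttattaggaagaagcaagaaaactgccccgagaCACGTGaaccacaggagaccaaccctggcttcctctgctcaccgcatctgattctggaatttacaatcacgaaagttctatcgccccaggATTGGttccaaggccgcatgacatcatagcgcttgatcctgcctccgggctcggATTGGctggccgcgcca

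Elovl2, start site 1 (GRCm38.p6, chr13:41220404-41220653, minus strand): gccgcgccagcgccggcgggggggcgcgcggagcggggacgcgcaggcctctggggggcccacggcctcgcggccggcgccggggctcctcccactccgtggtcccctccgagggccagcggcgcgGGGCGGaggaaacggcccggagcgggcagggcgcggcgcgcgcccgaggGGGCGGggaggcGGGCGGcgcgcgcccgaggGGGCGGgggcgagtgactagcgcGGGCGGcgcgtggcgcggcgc

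The Elovl5 promoter held 2 CCAAT boxes, both on the opposite strand and beginning 71 and 17 bases before the start, and 1 CACGTG. The Fads2 promoter held 1 GGGCGG, beginning 186 bases before the start, and no CCAAT. The printed Elovl2 promoter held 5 GGGCGG, and its second start site held none of the motifs. Among the 9 start sites, 3 held CCAAT, 6 held GGGCGG and 1 held CACGTG. The shares over all 32851 promoters of the table were 33.8% for CCAAT, 32.7% for GGGCGG and 6.02% for CACGTG. A sterol regulatory element written as TCACNCCAC was in 0 of the 9 and in 1.05% of all promoters. CCAAT and GGGCGG overlap in the promoter of Elovl1 and were each counted there. These are matches of letters and say nothing of binding.

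Elovl1, an elongase of very long saturated and monounsaturated chains that end in ceramides, measured 7.50, 7.62, 7.90, 7.50 and 7.70 in Ing2−/− testes, against 7.18, 7.29 and 7.44 in Ing2+/+ testes. The groups were separated by a small gap, and the difference was 0.34 (SE 0.11), and −0.28 against that median of −0.59 on an equal level of Sertoli markers. Elovl6, which takes palmitate to stearate and so supplies a substrate of Scd1, measured 6.87, 7.07, 7.25, 7.17 and 7.03 in Ing2−/− testes, against 6.95, 6.93 and 6.78 in Ing2+/+ testes. It overlapped, with a difference of 0.19 (SE 0.094). Elovl7, another elongase of saturated chains, lay at 4.99 to 5.34 in Ing2−/− testes, against 5.21 to 5.35 in Ing2+/+ testes, under the median of the unnamed probe sets on every array, and is not shown to be above background.

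Scd2, Fads1, Fads2 and Elovl5 shared 1 order of the Ing2−/− mice. Replicate 3 was the highest Ing2−/− testis in Scd1, Scd2, Fads1, Fads2, Elovl1 and Elovl5. Replicate 3 was also the highest in Elovl2 and Elovl6, whose groups overlapped. Its excess over the Ing2+/+ mean was 1.48 for Scd2, 1.51 for Fads1, 1.21 for Fads2 and 0.99 for Elovl5, where the other 4 Ing2−/− testes averaged 0.68, 0.94, 0.58 and 0.45 in the same order of genes. Scd1 differed less, with 1.50 in replicate 3 and a mean of 1.16 in the others. The likeness of 2 genes was measured as the root mean square difference between their levels, each minus its Ing2+/+ mean, over the 8 arrays. It was 0.13 between Scd2 and Fads2, 0.13 between Fads2 and Elovl5, 0.20 between Fads1 and Scd2, and 0.45 between Scd1 and Scd2.

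Markers of 12 cell types were set beside these profiles as the mean over the list of the level minus the Ing2+/+ mean. The score of Leydig cells, which make testosterone, was 0.43, 0.48, 1.13, 0.27 and 0.77 in Ing2−/− replicates 1 to 5, against −0.06 to 0.04 in Ing2+/+ testes, and 9 of 11 listed markers were measured, 5 of them called higher. The score of Sertoli cells, which nurse the germ cells, was 0.41, 0.29, 1.12, 0.36 and 0.54 in Ing2−/− testes, against −0.0059 to 0.0033 in Ing2+/+ testes. All 18 Sertoli markers were higher in the mean and 1 was called. Both scores were highest in Ing2−/− replicate 3 and next highest in replicate 5, as Scd2, Fads1, Fads2 and Elovl5 were. Below these the Leydig score kept the order of those genes, and so did the scores of macrophages and spermatogonia. The Sertoli score did not, being lowest in replicate 2. The score of pachytene spermatocytes ran in the exact reverse of that order. It was −0.17, −0.24, −0.65, −0.15 and −0.29 in Ing2−/− replicates 1 to 5. The root mean square difference from the Leydig score was 0.07 for Elovl5, 0.09 for Fads2, 0.19 for Scd2, 0.36 for Fads1 and 0.58 for Scd1, and that from the Sertoli score was 0.12, 0.19, 0.26, 0.44 and 0.61 in the same order. Elovl1 lay closest to the macrophage score, at 0.09, a score that was 0.16 to 0.76 in Ing2−/− and −0.02 to 0.01 in Ing2+/+ testes. Scores of the later germ cells ran the other way, from −0.95 to −0.15 for round spermatids, from −0.54 to −0.11 for elongating spermatids and from −0.65 to −0.15 for pachytene spermatocytes in Ing2−/− testes, against −0.04 to 0.04 over the 3 scores in Ing2+/+ testes. The score of spermatogonia, the earliest germ cells, was 0.03 to 0.33 in Ing2−/− and −0.02 to 0.03 in Ing2+/+ testes, highest in Ing2−/− replicate 3. Their part in the results for the desaturases and elongases was not tested.

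**Figure D2:**
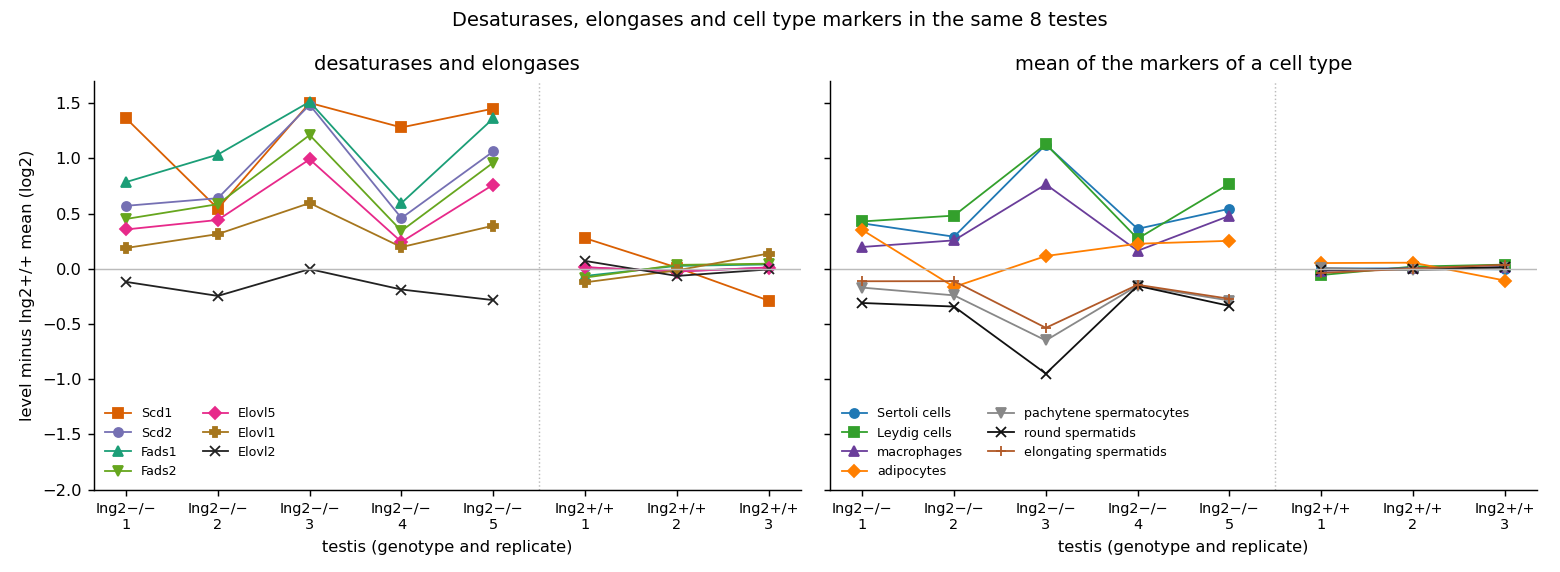
Level minus the Ing2+/+ mean (log2) in each of the 8 testes, with Ing2−/− replicates 1 to 5 left of the dotted line and Ing2+/+ replicates 1 to 3 right of it; the left panel shows 7 of the genes and the right panel the mean over the measured markers of 7 cell types. Lines join the values of one gene or score and carry no order. Scd2, Fads1, Fads2, Elovl5 and the Sertoli and Leydig scores peak in Ing2−/− replicate 3, and Scd1 and the adipocyte score dip in Ing2−/− replicate 2.

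The 10 differences were also computed on 3 other footings. Without Ing2−/− replicate 3, Scd1 was at 1.16, Fads1 at 0.94, Scd2 at 0.68, Fads2 at 0.58 and Elovl5 at 0.45. The cell mix was the Sertoli score less the average of the round and elongating spermatid scores. It ran from −0.03 to 0.03 on Ing2+/+ arrays and from 0.51 to 1.87 on Ing2−/− arrays. The genotypes did not overlap in it, so a fit with it cannot separate genotype from cell mix. With the cell mix as a covariate, Scd1 was at 0.91, Fads1 at 0.60, Scd2 at 0.24, Fads2 at 0.22, Elovl5 at 0.14 and Elovl2 at −0.30. With each array shifted to an equal median of the Sertoli markers, the median over all probe sets moved to −0.59, and Scd1 was at 0.61, Fads1 at 0.44, Scd2 at 0.22, Fads2 at 0.09, Elovl5 at −0.06, Elovl1 at −0.28, Elovl6 at −0.43 and Fads3 at −0.50. The shift is 1 constant per array and moves all probe sets alike. Elovl5, Elovl1, Elovl6 and Fads3 lay above its median of −0.59, whereas Elovl7 at −0.695 and Elovl2 at −0.79 lay below it. In the fit with the cell mix the median over all probe sets was 0.017, with Fads3 at 0.012 (SE 0.14) and Elovl6 at 0.060 (SE 0.12). Scd1 and Fads1 held the highest positions of the 10 as deposited, without Ing2−/− replicate 3 and with the cell mix. After the Sertoli shift the order of the 10 is that of the deposited values by construction. The family was chosen for differences on these arrays, so these positions carry no test.

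**Figure D3:**
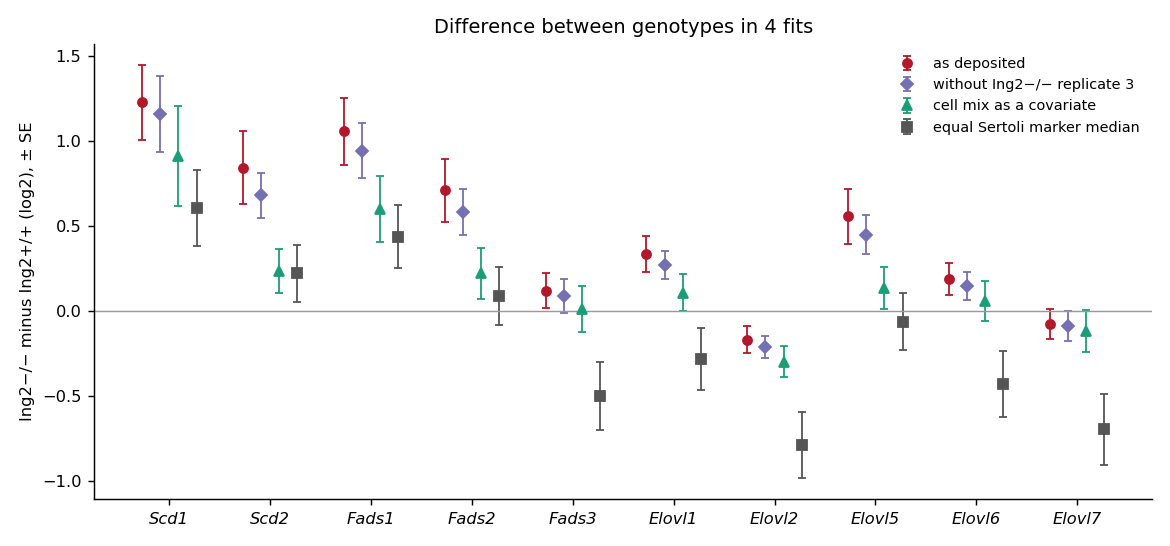
Difference Ing2−/− minus Ing2+/+ (log2) with its SE for the 10 genes in 4 fits: as deposited (red circles), without Ing2−/− replicate 3 (violet diamonds), with the cell mix as a covariate (green triangles) and after the shift that makes the median Sertoli marker equal on all arrays (grey squares). Scd1 is at 1.23, 1.16, 0.91 and 0.61 and Fads1 at 1.06, 0.94, 0.60 and 0.44 in that order, while Elovl5 goes to −0.06 in the last.

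The genes whose profile over the 8 arrays was most like that of Fads1, by the same root mean square difference, were Hsd17b3, the enzyme of Leydig cells that makes testosterone (0.13), the sterol oxidase Msmo1 (0.16), the amino acid transporter Slc7a8 (0.17), the retinaldehyde dehydrogenase Aldh1a1 (0.17) and the acetyl-CoA synthetase Acss1 (0.18). Aldh1a1 averaged 12.12 in Ing2−/− and 11.23 in Ing2+/+ testes, a difference of 0.89. Hsd17b3 averaged 9.85 in Ing2−/− and 8.91 in Ing2+/+ testes (difference 0.94). For Scd1 they were 2610005L07Rik (0.26), the membrane glycoprotein Emb (0.34), the tyrosine-degrading enzyme Fah (0.34), the lipase Lipg (0.36) and the cholesterol exporter Abca1 (0.36). The nearest genes thus lay further from Scd1 than from Fads1, and no gene stood in both sets of 5. Abca1 averaged 9.68 in Ing2−/− and 8.57 in Ing2+/+ testes (difference 1.11). These genes were picked for likeness over the same 8 arrays, genotype step included, so their differences follow from that choice and carry no test.

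Around the family, 9 lists of other genes of fatty acid metabolism held 129 genes, of which 122 were measured. By 1 probe set for each gene, 7 were called higher and 2 lower in Ing2−/− testes, and the median difference was 0.17. Over all genes 4.98% were called, 1.97% higher and 3.01% lower, and the median was 0.02. Of the 122 genes, 44 were separated upward and 11 downward, where 16.7% and 14.9% of all genes were. The 9 calls fell to 3 without Ing2−/− replicate 2 and to 0 without replicate 1, without replicate 5 or without any 1 of the Ing2+/+ arrays, and they grew to 33 without replicate 3, where the calls over all probe sets grew to 5006, so no gene of these lists was called on every such footing. On an equal level of Sertoli markers, where the median of all probe sets was −0.59 and every probe set moved alike, 6 of the 7 genes called higher turned to between −0.058 and −0.30, and Acsl4 stayed at 0.14.

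Of the 10 genes listed under fatty acid synthesis, 2 were called. Thrsp, a lipogenic nuclear protein, was at 6.51 ± 0.16 in Ing2−/− and 5.95 ± 0.21 in Ing2+/+ testes (difference 0.56, SE 0.12, adjusted p = 0.0386 from limma). Acacb, the mitochondrial acetyl-CoA carboxylase, was at 6.83 ± 0.11 in Ing2−/− and 6.52 ± 0.03 in Ing2+/+ testes (difference 0.32, SE 0.075, adjusted p = 0.0487 from limma). Fasn, the fatty acid synthase, and Acly, the ATP citrate lyase, were separated between genotypes, with differences of 0.58 (SE 0.15) and 0.77 (SE 0.22). They were not called (adjusted p = 0.0583 and 0.0760 from limma). Acaca, the other acetyl-CoA carboxylase, overlapped, with a difference of 0.10 (SE 0.17, adjusted p = 0.754 from limma), and its dimmer probe set differed by 0.03. Fasn, Acly and Acaca were named after their values were seen. The median of the list was 0.30, with 6 of 10 genes separated upward.

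The rest of the elongation cycle and the electron supply had no calls. Of the 13 genes of the cycle and of other desaturases, Scd3 (0.25, adjusted p = 0.0776 from limma) and Hsd17b12, the ketoacyl reductase of the cycle (0.62, adjusted p = 0.0903), had the smallest p. Hsd17b12 was at 8.97 ± 0.39 in Ing2−/− and 8.35 ± 0.01 in Ing2+/+ testes. Of 6 genes that pass electrons to the desaturases, the cytochrome b5 reductases Cyb5r3 (difference 0.54, SE 0.13, adjusted p = 0.0546 from limma) and Cyb5r1 (0.86, SE 0.22, adjusted p = 0.0568) came nearest. Cyb5r1 was 8.50, 8.45, 9.46, 8.43 and 8.73 in Ing2−/− testes, against 7.85, 7.84 and 7.86 in Ing2+/+ testes, and again replicate 3 was the highest of the separated Ing2−/− group.

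Of 18 measured regulators of fatty acid synthesis 0 were called, with a median difference of 0.08. Insig1, which holds the sterol sensor in the endoplasmic reticulum and is itself a target of the sterol-sensing factors, was at 8.69 ± 0.27 in Ing2−/− and 8.06 ± 0.19 in Ing2+/+ testes (difference 0.63, SE 0.16, adjusted p = 0.0546 from limma). Scap, that sensor, differed by 0.40 (SE 0.13, adjusted p = 0.0894 from limma). Srebf1, the transcription factor that drives many desaturase genes, was 7.27, 7.34, 7.72, 7.11 and 7.45 in Ing2−/− testes and 6.98, 7.20 and 7.01 in Ing2+/+ testes (difference 0.31, SE 0.13, adjusted p = 0.157 from limma), and was named after its values were seen. The Srebf1 groups overlapped. Ppargc1a, a coactivator, was lower in the mean by both of its probe sets, the dimmer of which was called and the brighter not; both lay under the median of the unnamed probe sets and are not shown to be above background.

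The 7 other called genes, 5 higher and 2 lower, came from the lists of acyl-CoA synthetases, phospholipid acyltransferases, sphingolipid genes and fatty acid uptake. Acsl4, an acyl-CoA synthetase that prefers arachidonic acid, was 8.47, 8.36, 9.15, 8.39 and 8.63 in Ing2−/− testes, against 7.85, 7.77 and 7.89 in Ing2+/+ testes (difference 0.76, SE 0.17, adjusted p = 0.0430 from limma). Mboat7, which places arachidonic acid into phosphatidylinositol, was 7.26, 7.15, 7.50, 7.40 and 7.31 in Ing2−/− testes, against 6.95, 6.83 and 6.97 in Ing2+/+ testes (difference 0.41, SE 0.088, adjusted p = 0.0398 from limma). Both were separated between genotypes. Gpat3, a glycerol-3-phosphate acyltransferase, fell, with 7.72, 7.88, 7.06, 7.79 and 7.72 in Ing2−/− testes, against 8.33, 8.51 and 8.40 in Ing2+/+ testes (difference −0.78, SE 0.17, adjusted p = 0.0419 from limma).

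Among the 15 measured ceramide and sphingolipid genes, Sptlc1, a subunit of serine palmitoyltransferase (0.41, SE 0.095, adjusted p = 0.0471 from limma), and Kdsr, the next enzyme of sphingoid base synthesis (0.50, SE 0.11, adjusted p = 0.0423), were called higher. Fa2h, which hydroxylates fatty acids for sphingolipids, was called lower, with 8.16, 8.20, 7.49, 8.33 and 8.06 in Ing2−/− testes, against 8.86, 8.88 and 8.91 in Ing2+/+ testes (difference −0.84, SE 0.17, adjusted p = 0.0338 from limma). Ing2−/− replicate 3 was the lowest in Gpat3 and Fa2h, as it was in the scores of pachytene spermatocytes and of round and elongating spermatids. Slc27a3, an acyl-CoA synthetase of the fatty acid transport family, was called higher (0.50, SE 0.11, adjusted p = 0.0415 from limma) among 18 genes of uptake and binding. Peroxisomal beta-oxidation had 0 calls among 14 measured genes, and the smallest p there belonged to Pex5, the import receptor (0.36, adjusted p = 0.0556 from limma), and Scp2, which carries a thiolase (−0.42, adjusted p = 0.0722).

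**Figure D4:**
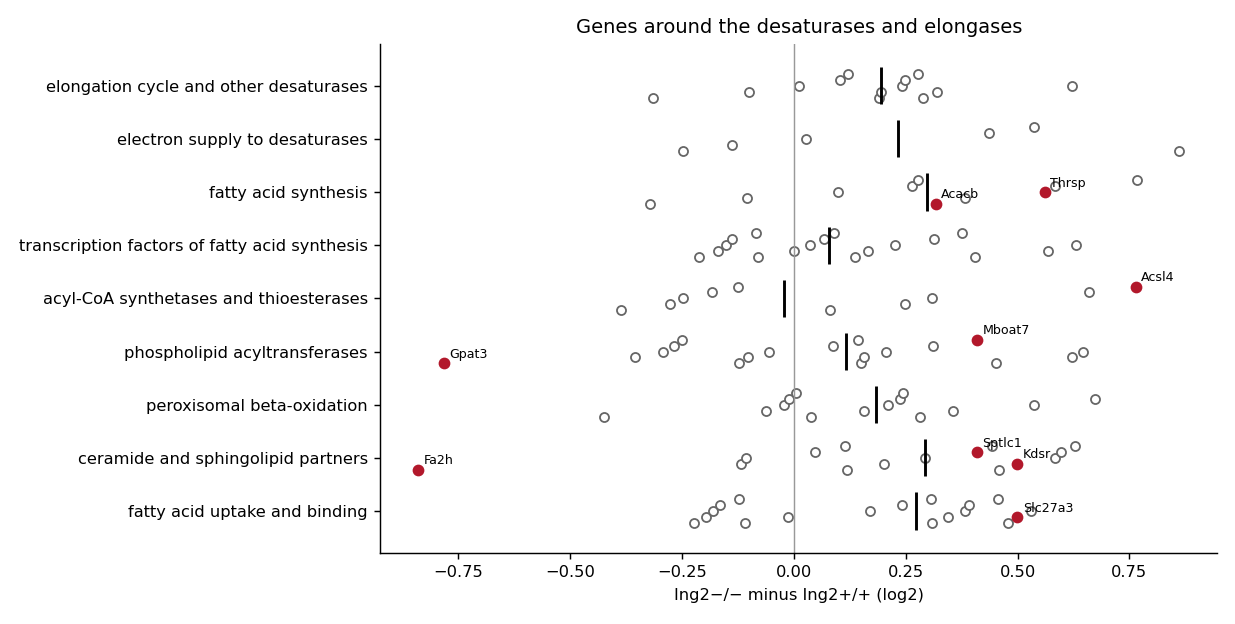
Difference Ing2−/− minus Ing2+/+ (log2) of the 122 measured genes in 9 lists, 1 point per gene; filled red points are called genes, with their names, and black bars are the medians of the lists. Called genes lie at 0.32 to 0.76 except Gpat3 at −0.78 and Fa2h at −0.84.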

How the data were processed

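RNA was taken from testes of 5 Ing2−/− and 3 Ing2+/+ mice and profiled on Affymetrix Mouse Gene ST arrays. The authors deposited log2 values made with RMA in Affymetrix Expression Console (version not given in the sources used here), summarized at the gene level; RMA subtracts background and equalizes the distributions of the arrays, which hides any change in total RNA. Per-sample columns left out numbered 0. Gene names came from the platform annotation: 21789 probe sets carried 1 symbol (21698 updated by gene identifier to GRCm38.p6), 1621 carried several and 12147 carried none. Only those with 1 symbol were named, and the brightest probe set stands for a gene with more than 1. Genes of the lists without such a probe set were not analysed here.

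R 4.3.3 and limma 3.58.1 were used to compare the genotypes without covariates by lmFit and eBayes (prior degrees of freedom 2.85). The p-values were adjusted by Benjamini-Hochberg over 35557 probe sets, and 0.05 was the threshold of a call. The fit was tested on simulated data. The number of arrays limits the precision. The genes and lists were chosen with earlier results of these arrays known. Named genes were the 10 desaturases and elongases, Ing2, up to 5 called genes of each list with the largest difference or the 2 of smallest p where none was called, and the 5 genes most like Scd1 and Fads1; others are named as chosen after their values were seen. Marker lists were those of Sertoli, Leydig, endothelial, peritubular myoid and red blood cells, spermatogonia, pachytene spermatocytes, round and elongating spermatids, macrophages, adipocytes and epididymis. Their medians were 0.56 (Sertoli), 0.60 (Leydig), 0.23 (endothelial), 0.26 (myoid), −0.02 (red blood cells, 3 of 7 measured), 0.10 (spermatogonia), −0.20 (pachytene), −0.37 (round spermatids), −0.21 (elongating spermatids), 0.39 (macrophages), 0.15 (adipocytes) and −0.01 (epididymis). The epididymis score was 0.62 in Ing2−/− replicate 4, 0.27 in replicate 2, −0.12 to 0.03 in the other Ing2−/− testes and −0.05 to 0.03 in Ing2+/+ testes. In Ing2−/− replicate 4 Spink8 was at 7.76 and Adam7 at 6.80, against Ing2+/+ means of 4.89 and 4.265. The part of epididymis in the results was not tested. Alternatives were the replicate block, each array left out, 2 filters, cyclic loess, the Sertoli shift, 3 other variance models, array weights and the cell mix. Python 3.11.15 with matplotlib 3.10.9 drew the figures.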

Additional observations from a re-analysis of the deposited data

Results flagged for a closer look

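In 28 groups of 5 Ing2−/− values, those of the 10 genes, Ing2 and the named genes of the lists, 4 had a highest or lowest testis far from the other 4; chance marks about 1 in 20 such groups. Scd1 was low in Ing2−/− replicate 2, at 7.844 on the log2 scale. Ing2−/− replicate 3 was high in Cyb5r1, at 9.455, and in Kdsr, at 7.806, and low in Gpat3, at 7.061. That testis also had the highest Sertoli and Leydig scores and the lowest spermatid scores of the 5.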

How the results depend on the processing

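The labels do not say whether the replicate numbers pair the mice. Same-numbered deviations had r of −0.06, 0.18 and 0.006, and those of unlike numbers −0.11 to 0.14. So few arrays cannot settle whether a litter or day was shared. With the number as a replicate block 0 of the 10 genes, 0 of the 122 list genes and 0 probe sets in all were called. Without the block the counts were 2, 9 and 1713. Ing2−/− replicates 4 and 5 have no Ing2+/+ array of the same number, so the blocked difference rests on replicates 1 to 3. That fit has less power, and its lack of calls does not show a shared litter or day. Desaturase and elongase genes called numbered 4 among probe sets above the median level, 4 among probe sets with 1 symbol, 5 after the Sertoli shift (2 higher, 3 lower), 6 with array weights, and 0 with ordinary variances or with the cell mix as a covariate; list genes called numbered 14, 15, 56 (all lower), 39, 0 and 0 in that order. Leaving out 1 array gave 0 to 5 of the 10, 0 to 33 list genes and 49 to 5006 probe sets, the highest each time without Ing2−/− replicate 3. Over all probe sets, calls were 23680 after the Sertoli shift, 6565 with array weights, 184 with ordinary variances and 80 with the cell mix. Cyclic loess (2 and 8), the random variance model of the methods (2 and 9) and an intensity trend (2 and 6) stayed near the counts as deposited. Every reversal came after the Sertoli shift, which moved the median of all probe sets to −0.59: Fads3 −0.50, Elovl1 −0.28, Elovl5 −0.061, Elovl6 −0.43, Scd3 −0.37, Cyb5r3 −0.083, Thrsp −0.058, Acacb −0.30, Scap −0.22, Mboat7 −0.21, Pex5 −0.26, Kdsr −0.12, Sptlc1 −0.21 and Slc27a3 −0.12. Apart from the changes in calls that go with fewer probe sets or fewer arrays tested, the cause was not tested. Each of the 10 genes has 1 probe set, so the mean over probe sets gives no other value.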
